A study of Homo sapiens and Mus musculus with 6 samples.

Results

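The genes described here had a promoter bait with at least 1 CHiCAGO-detected interaction in both cell types profiled by Promoter Capture Hi-C (CHi-C). They were found by matching the gene symbols on the baits, written in capitals, between the human and the mouse call list. Of 28710 symbols with a call in either list, 7880 had one in both, 12578 had one in GM12878 only and 8252 in mESCs only. GM12878 is a human lymphoblastoid cell line, labelled B-Lymphocyte, and was profiled with 3 biological replicates. The mESCs are mouse embryonic stem cells of the J1 line (strain 129S4/SvJae) with 2 biological replicates, grown on irradiated embryonic fibroblasts that were depleted by passaging before fixation. The labels give no treatment and no engineered allele for either. In CHi-C, HindIII restriction fragments that carry promoters serve as baits, and an interaction, here a call, joins a bait to another fragment, its other end. Each list was made on all replicates of its cell type together, so a gene has 1 value per cell type with no spread over replicates, and the differences below carry no test. Species, cell type, bait design, replicate number and depth all differ between the lists and cannot be told apart.

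Promoters contact distal elements through looping of the chromatin fibre, and regions bound by lineage factors often contact the promoters of genes active in that lineage. Lymphoblastoid lines are B cells transformed by Epstein-Barr virus, whose LMP1 protein drives NF-kB signalling. In embryonic stem cells, promoters of developmental transcription factors, the Hox genes among them, are held silent by Polycomb complexes and are known to contact each other over long distances. CHi-C measures contacts and not expression.

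Over all matched genes the 2 lists gave nearly the same number of calls per gene. The median was 4 calls in GM12878 and 4 in mESCs, with upper quartiles of 9 and 9 and means of 7.75 (SD 10.2 over genes) and 7.44 (SD 8.97). More calls were found in GM12878 for 3430 genes, 43.5% of those matched, and in mESCs for 3556 genes, 45.1%, with 894 ties. The same gene often had very different numbers in the 2 cell types. The rank correlation of calls across the 7880 genes was 0.251, given as a description, since neighbouring genes share baits and contact domains. Only 282 genes had at least 15 calls in both lists, against 1150 in GM12878 and 1082 in mESCs, while 397 had 1 call in both.

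**Figure D1:**
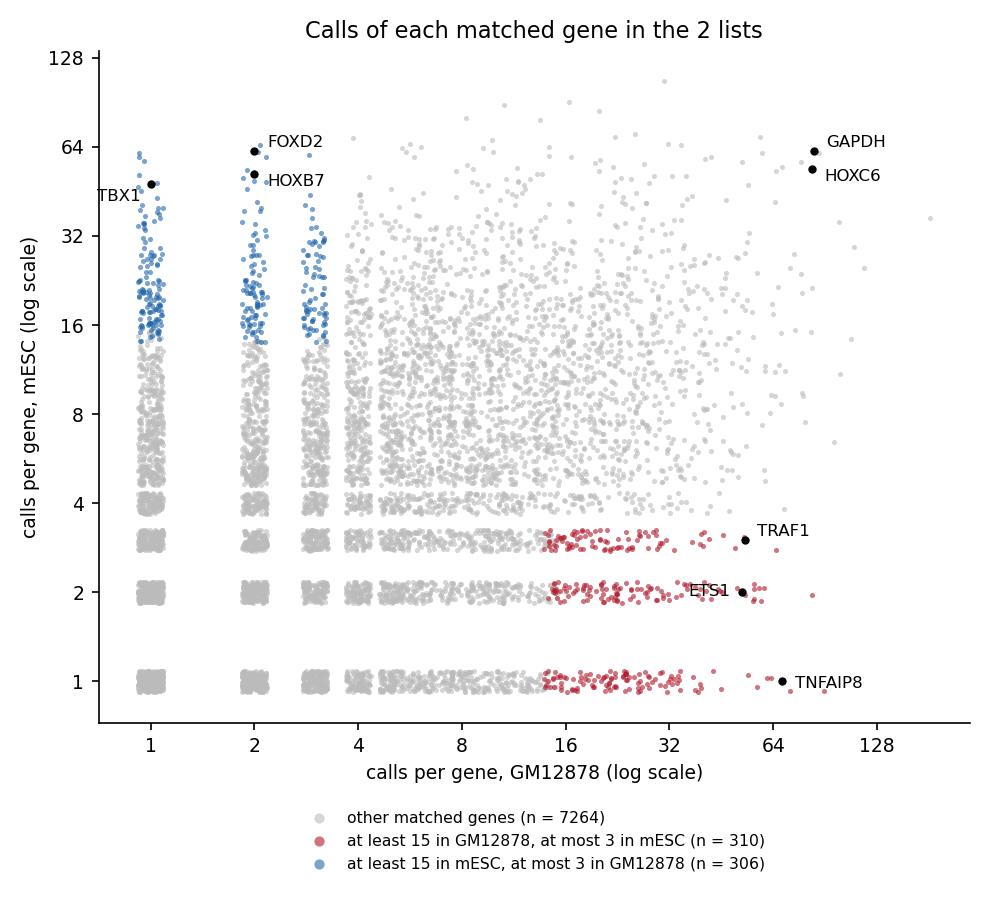
Calls per gene in GM12878 (horizontal axis, log scale) and in mESCs (vertical axis, log scale) for the 7880 matched genes, each a point moved slightly at random so that genes with the same values can be seen. The 310 genes in red and the 306 genes in blue lie along the axes, with many calls in 1 cell type and at most 3 in the other, and the named genes are drawn in black at their exact values.

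The calls of matched genes reached further and rested on more reads in GM12878. A gene's median distance to its cis-chromosomal other ends was 171.4 kb in GM12878 (quartiles 102.7 and 278.8 kb) and 139.6 kb in mESCs (76.7 and 242.1 kb), as medians over genes. It was longer in GM12878 for 4740 of the 7850 genes with a cis-chromosomal call in both lists, which is 60.4% (Wilson 95% interval 59.3 to 61.5%, counting error only). The median read count of a gene's calls, a weighted mean over replicates as the authors list it, was 15 in GM12878 (quartiles 11 and 20) and 12 in mESCs (9 and 17.5). It was higher in GM12878 for 4725 genes and lower for 2901. The rank correlation across genes was 0.274 for distance and 0.133 for read count. Read counts follow sequencing depth as well as contact frequency, and these were not separated.

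**Figure D2:**
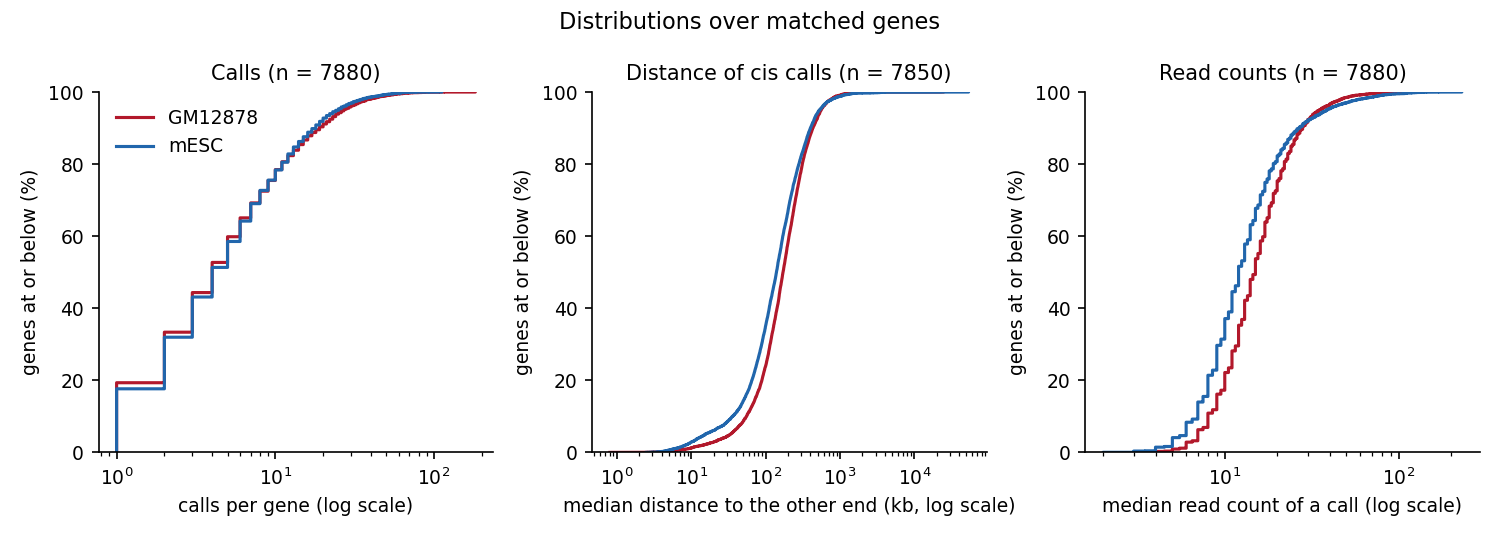
Cumulative share of matched genes (vertical axis, %) by calls per gene, by the gene's median distance to cis-chromosomal other ends (kb) and by the gene's median read count of a call, all on log scales, for GM12878 in red and mESCs in blue. The curves for calls nearly coincide, while those for distance (medians 171.4 and 139.6 kb) and read count (medians 15 and 12) lie further right in GM12878 over most of their length.

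Genes were called GM12878-rich with at least 15 calls in GM12878 and at most 3 in mESCs, and mESC-rich with the reverse. There were 310 GM12878-rich genes, 3.93% of those matched, and 306 mESC-rich genes, 3.88%. The limits are not gaps in the data. Exactly 15 against 3 calls were found for 14 GM12878-rich genes, among them FES, MAP3K14 and MAP3K8, while 37 genes missed the group by 1 call in GM12878 and 68 by 1 call in mESCs. On the mESC side 7 genes, among them ADCY6 and LASP1, sat exactly at both limits, 22 fell 1 call short in mESCs and 89 had 1 call too many in GM12878.

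The largest differences towards GM12878 included several genes known from lymphocytes and from NF-kB signalling. Calls numbered 68 in GM12878 and 1 in mESCs for TNFAIP8, an apoptosis regulator induced by NF-kB. BIRC2, a ubiquitin ligase of the TNF receptor complex, had 58 and 2. These NF-kB genes stood beside surface proteins of the immune system. CD47, the signal that restrains phagocytosis, had 57 and 2 calls, and CD200, an inhibitory ligand found on B cells, had 55 and 1. FAM167A, which lies next to the B cell kinase gene BLK, had 73 and 1, and its single mESC call fell in an intron of Blk at 29.3 kb. Others of the 15 with the largest difference have general roles. They were AGPAT5, an acyltransferase of phospholipid synthesis, with 87 calls in GM12878 and 1 in mESCs, HNRNPA2B1, an RNA-binding protein, with 60 and 2, PLEKHO1 with 60 and 2, the actin-nucleation subunit ACTR3 with 56 and 2, the cyclophilin PPID with 56 and 2, TMEM159 with 63 and 3, INHBE, an activin subunit, with 61 and 1, and CNNM4, a magnesium transporter, with 54 and 1. INHBE was the only one of these with 2 listed human baits, and its mean over them exceeded the mESC value by 29.5 calls. On lists shortened to the same number of calls the difference dropped to 45 calls for FAM167A, 39 for TMEM159, 35 for BIRC2, 35 for PPID and 31 for CD47, and with a score of at least 10 to 48 for AGPAT5. Genes that lost their few mESC calls under these settings, TNFAIP8 among them, have no value there.

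HYDIN and ADAM30 also ranked among these 15, with 86 against 2 and 56 against 2 calls. For them and for TMEM159 most GM12878 calls were not local. Of the 86 HYDIN calls 71 were trans-chromosomal, on a median of 6 reads over all 86, and the highest score joined it to an exon of NBPF13P on chromosome 1. A near-identical copy of part of HYDIN is known on that chromosome, so read placement is uncertain for this gene. With cis-chromosomal calls only, HYDIN had 13 more calls in GM12878 than in mESCs. The median distance of ADAM30 calls was 24561.7 kb across the centromere, on a median of 7.5 reads, in a region where partial copies of its neighbour NOTCH2 are known, and under 1 Mb its difference was 11 calls. For TMEM159 the median distance was 1182.3 kb, on a median of 17 reads, and under 1 Mb its difference dropped to 27 calls. None of the 15 except HYDIN had a trans-chromosomal call.

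Around TNFAIP8, the 68 GM12878 calls of the bait at chr5:118600720-118609276 (hg19) lay between 4.9 and 343.0 kb away on 11 to 100 reads, and only 4 of them ended on another bait. The mESC call reached the promoter of Dmxl1 at 146.6 kb on 7 reads, and DMXL1 was also contacted by TNFAIP8 in GM12878. TRAF1, an adaptor of TNF receptor signalling, had 53 calls in GM12878 from chr9:123690134-123691855 and 3 in mESCs. The promoter of PHF19, a Polycomb accessory factor gene beside TRAF1, was contacted in both cell types. ETS1, a transcription factor of lymphoid cells, had 52 calls in GM12878, none to another bait, and 2 in mESCs. Its GM12878 calls reached a median of 274 kb, and the best of them, with a score of 20.72, ended between genes at 284.6 kb.

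The largest differences towards mESCs included 6 developmental transcription factors and a microRNA gene of a Hox cluster among 15 genes. FOXD2 and FOXE3, forkhead genes that lie side by side, had 62 and 57 calls in mESCs against 2 and 1 in GM12878. HOXB7, of the HoxB cluster that patterns the body axis, had 52 against 2. TBX1, a T-box gene of pharyngeal development, had 48 against 1, ZIC2, a zinc-finger gene of the neural tube, 48 against 1, and EVX1, a homeobox gene at the end of the HoxA cluster, 46 against 1. MIR196B, a microRNA gene within the HoxA cluster, had 55 against 2. The other 8 are not developmental factors. IL27RA, a cytokine receptor subunit, had 60 calls in mESCs against 1 in GM12878 and PALM3 had 46 against 1, from 2 mouse baits but 1 shared human bait. PRKACA, the catalytic subunit of protein kinase A, had 55 against 2, NT5C1A, a cytosolic nucleotidase, 57 against 1, NOC4L, a ribosome biogenesis factor, 60 against 3, and PANX2, a channel protein, 47 against 2. IAH1 had 62 against 2 and YWHAQ, a 14-3-3 protein, 49 against 2. These 2 are neighbours on mouse chromosome 12, and the IAH1 calls had a median of only 6 reads, so that with calls on at least 10 reads its difference dropped to -10 calls (GM12878 minus mESC), and that of YWHAQ to -29. On lists of the same length the differences were -29 for PRKACA, -20 for PANX2 and -38 for IAH1, and with a score of at least 10 they were -16 for IAH1 and -22 for YWHAQ.

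**Figure D3:**
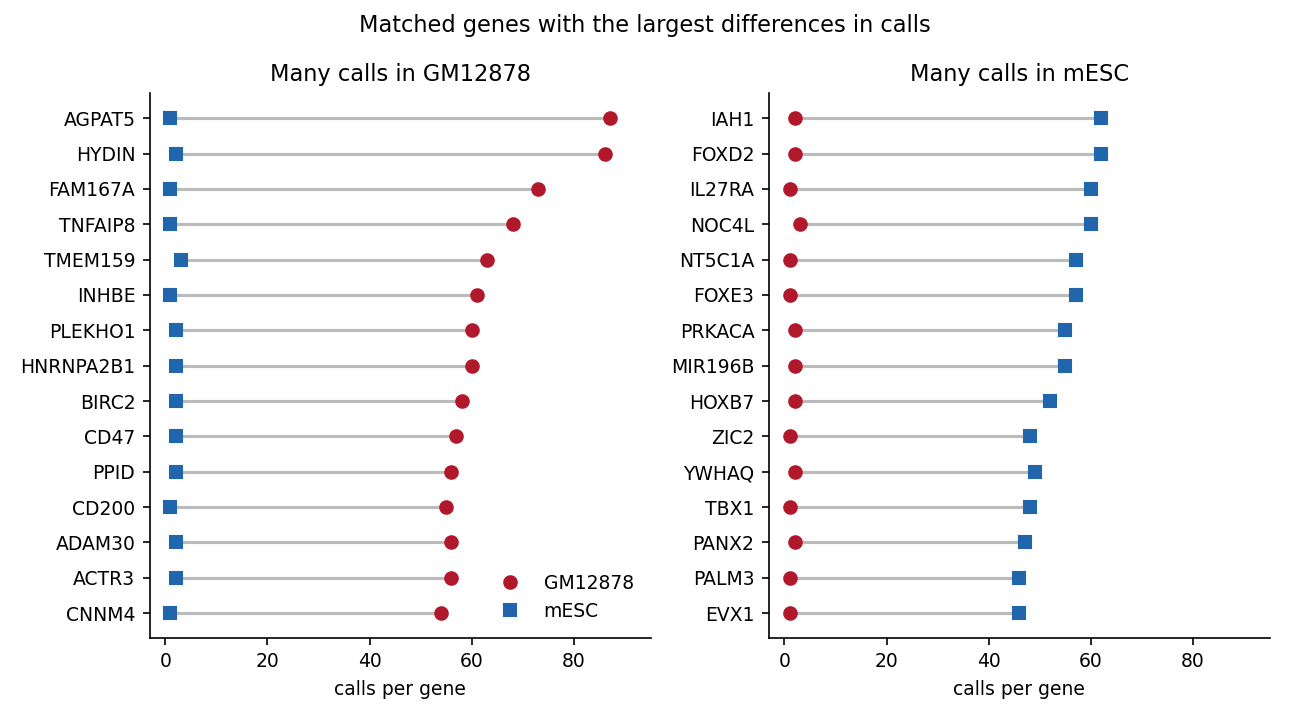
Calls per gene in GM12878 (red circles) and mESCs (blue squares) for the 15 genes with the largest difference in each direction, joined by a line, with 1 gene per row. In the left panel GM12878 values run from 54 to 87 and in the right panel mESC values run from 46 to 62, while the other cell type has 1 to 3 calls.

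Around these developmental promoters the mESC calls combined a dense local cluster with very long contacts. The HOXB7 bait at chr11:96143220-96152069 (mm9) had a median call distance of 81.3 kb and a median of 42.5 reads per call. Its calls reached up to 22923.9 kb. Baited ends of HOXB7 carried the promoters of Hoxb1, Hoxb2, Hoxb3, Hoxb4, Hoxb5, Hoxb9 and Hoxb13, of the Polycomb subunit gene Cbx8 and of Neurod2, and 1 trans-chromosomal call reached Hoxc5. The FOXD2 bait at chr4:114578755-114582023 (mm9) had calls up to 32428.9 kb away, 24 of the 62 lay beyond 1 Mb, and its highest score of 92.95 was to the start of Dmrta2, another developmental factor gene, at 4931.7 kb. Under 1 Mb the differences were -36 calls for FOXD2 and -36 for FOXE3, and on calls of at least 10 reads -36 for FOXD2. The baited ends of FOXD2 also carried Foxe3, Tal1, Dmbx1 and Cdkn2c. TBX1, at chr16:18585200-18588626 (mm9), scored highest, at 89.25, with Scarf2 at 787.9 kb on 72 reads. ZIC2 contacted the promoters of Zic5, Sox21 and Egr3, and EVX1 Hoxa2, Hoxa10 and Hoxa13, MIR196B and Dlx5. In GM12878 the few calls of HOXB7, TBX1, ZIC2 and EVX1 all ended on unbaited fragments, with scores of the best call between 5.13 and 6. Both GM12878 calls of FOXD2 instead ended on baits, with scores of 9.88 and 5.28.

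**Figure D4:**
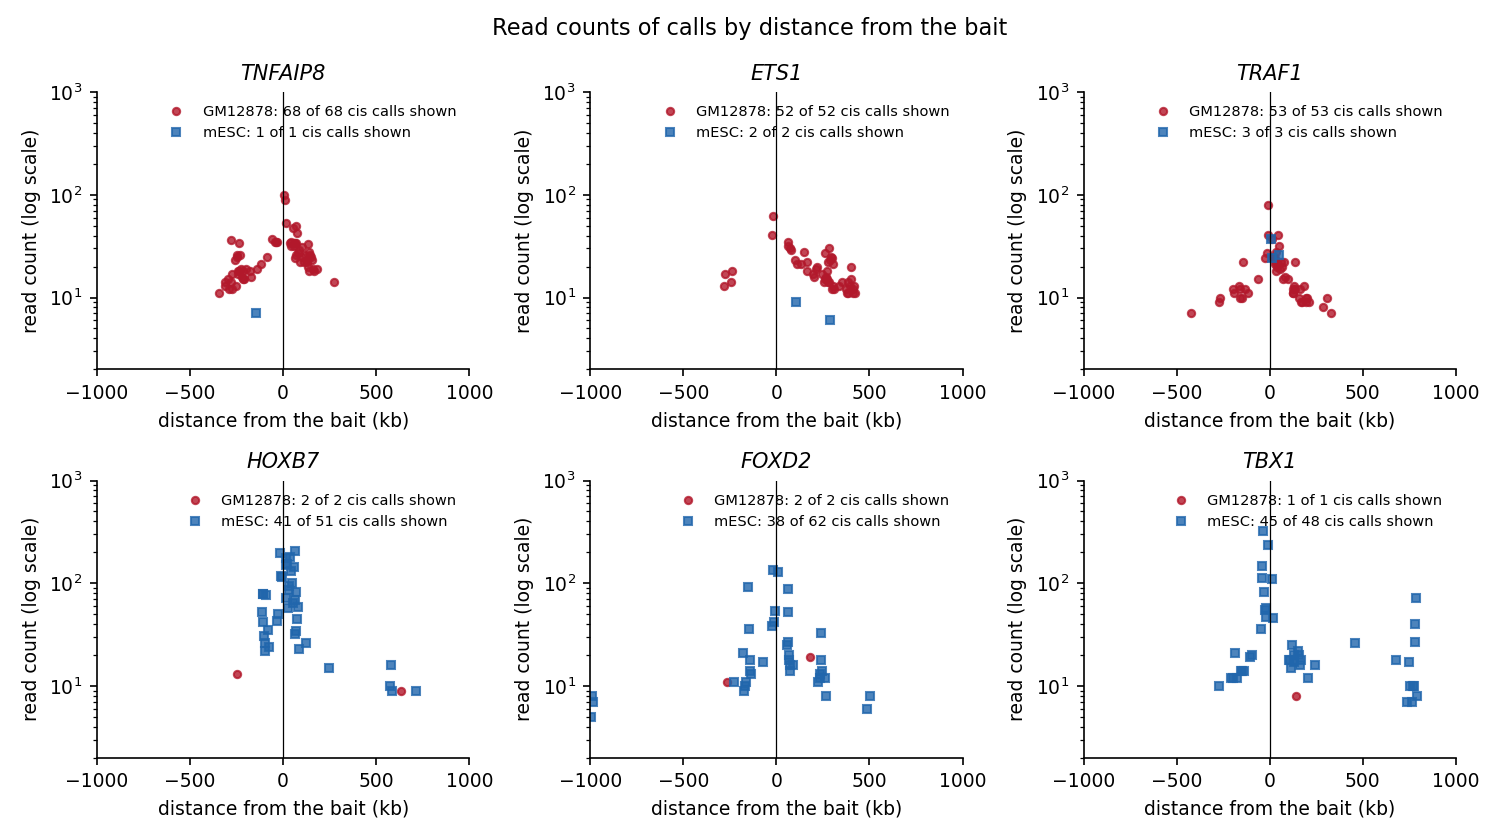
Read count of each cis-chromosomal call (vertical axis, log scale) by its signed distance from the bait (kb, within 1 Mb on either side) for 3 GM12878-rich genes (top row) and 3 mESC-rich genes (bottom row), with GM12878 in red and mESCs in blue. GM12878 calls of TNFAIP8, ETS1 and TRAF1 spread up to 424.3 kb on both sides, whereas the mESC calls of HOXB7 gather around the bait at up to 206 reads, and 24 of 62 FOXD2 calls lie outside the range shown.

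The promoter of 1 mESC-rich gene, LHX2, is shown in both species as an example of a CpG-rich developmental promoter with long-range contacts. LHX2, a homeobox gene of forebrain and limb, had 20 calls in mESCs and 3 in GM12878, and its mESC contacts included the promoters of Lmx1b, Lhx6, Hoxd3, Hoxd10 and Hoxd12. The 250 bases before an annotated transcript start on the bait are given 5′ to 3′ on the strand of the gene, with each CpG in capitals. Neither window overlaps an annotated exon. They are chr9:126773797-126774046 (hg19, plus strand) and chr2:38194551-38194800 (mm9, plus strand).
LHX2 human: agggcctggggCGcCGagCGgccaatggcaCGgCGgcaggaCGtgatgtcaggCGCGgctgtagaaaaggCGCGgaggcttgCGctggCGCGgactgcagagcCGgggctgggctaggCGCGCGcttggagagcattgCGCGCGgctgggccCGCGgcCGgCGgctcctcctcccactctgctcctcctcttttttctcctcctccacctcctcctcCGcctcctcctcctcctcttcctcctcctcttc
LHX2 mouse: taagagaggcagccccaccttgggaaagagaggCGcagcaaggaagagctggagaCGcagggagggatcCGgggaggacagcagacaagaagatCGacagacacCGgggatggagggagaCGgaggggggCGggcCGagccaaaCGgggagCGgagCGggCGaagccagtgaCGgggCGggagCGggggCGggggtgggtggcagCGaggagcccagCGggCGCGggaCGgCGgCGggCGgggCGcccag
Both windows hold 25 CpGs. Over the groups, the median number of CpGs in the human window was 22 for GM12878-rich genes, 21 for mESC-rich genes and 20 for all matched genes with an annotated start on a listed bait, and in the mouse window 14, 14 and 13. The kappaB motif, a 10-base site bound by NF-kB, was searched on both strands and was present in 12.9% of the human windows of GM12878-rich genes, in 12.9% of those of mESC-rich genes and in 12.2% of all, and in 9.35%, 7.52% and 9.29% of the mouse windows. Both counts thus lay close to those of all matched genes in either group. A match is a run of letters and not a bound site.

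What the calls of the 2 groups reached is given beside the shares over all matched genes. In the cell type where the gene had many calls, most other ends carried no bait, as over all matched genes. Bait-to-bait calls made up 11.9% of the 7934 GM12878 calls of GM12878-rich genes and 27.6% of the 7301 mESC calls of mESC-rich genes, against 29.3% and 36.8% over all matched genes in these cell types. In the other cell type the few calls were more often between promoters, at 52.3% of 597 mESC calls of GM12878-rich genes and 47.4% of 561 GM12878 calls of mESC-rich genes. Calls over 1 Mb formed 6.05% of the mESC calls of mESC-rich genes, 1.51% of those of GM12878-rich genes and 3.43% over all. For the GM12878 calls these shares were 0.713%, 1.87% and 1.44%. These are shares of calls that share baits and neighbouring fragments, and are given without a test. The groups were chosen on the number of calls, and genes with many calls weigh most in the shares over all. Other genes with equally few or many calls were not compared, so these shares are not shown to be particular to the groups.

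The mESC Hi-C library, made without capture, offered a further measure of these calls. Of the mESC calls under 1 Mb of mESC-rich genes, 1163 of 6781 joined fragments within a pair of interacting 25-kb Hi-C bins, or 17.2% (Wilson 95% interval 16.3 to 18.1%). For GM12878-rich genes it was 28 of 585, or 4.79% (3.33 to 6.83%), and for all matched genes 6879 of 56345, or 12.2% (11.9 to 12.5%). The groups were chosen on the number of mESC calls, so these shares are a description with no test, and the intervals cover counting error only and treat neighbouring calls as independent. A call in such a bin pair was found for 156 of the 306 mESC-rich genes and 21 of the 310 GM12878-rich genes, which also have fewer calls to begin with.

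Features of the baits moved with the groups as well. The median length of the human bait was 6824.5 bp for GM12878-rich genes, 10530 bp for mESC-rich genes and 7996.5 bp for all matched genes, whereas mouse baits measured 6416.5, 5519.5 and 5957.5 bp. Several listed human baits contributed to 22.9% of GM12878-rich genes but to 1.96% of mESC-rich genes and 10.3% of all. With calls averaged over the baits of a gene, 254 genes were GM12878-rich and 323 mESC-rich. Baits with a call within 500 kb numbered 10 in the human list around GM12878-rich genes and 15 around mESC-rich genes (medians), against 12 over all, and 12, 21 and 15 in the mouse list. HindIII fragments within 500 kb numbered 259, 214 and 247 in the human genome and 298, 276 and 291 in the mouse genome. The part of bait length, bait number and local fragment density in the groups was not tested.

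The mESC-rich genes were unevenly placed along the human genome. On human chromosome 19, which is gene-dense and rich in GC, 75 of 567 matched genes were mESC-rich, 13.2%, and 5 were GM12878-rich, 0.882%. Chromosome 22 followed with 15 of 183 mESC-rich genes, 8.2%. The highest shares of GM12878-rich genes were 7.11% on chromosome 15 (18 of 253) and 6.59% on chromosome 7 (22 of 334). In the mouse genome the highest mESC-rich shares were 8.96% on chromosome 8 (38 of 424) and 8% on chromosome 17 (28 of 350). Neighbours with baits less than 1 Mb apart often fell in the same group. A run of 18 mESC-rich genes lay on human chromosome 19 between 2372222 and 5975084 bp, from TMPRSS9 to RANBP3, and another of 13 between 12806350 and 14223416 bp held JUNB, NFIX, IL27RA, PALM3 and PRKACA. The longest GM12878-rich run had 8 genes on chromosome 11 between 65473856 and 67039530 bp, KAT5 and CFL1 among them, and a run of 5 on chromosome 12 held STAT2, GLS2, STAT6, INHBE and ARHGAP9. Genes of such a run are not independent observations.

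Lists of genes with known roles were then counted against the shares of all matched genes, 43.5% with more calls in GM12878 and 45.1% with more in mESCs. For members of the 2 groups the shares of all matched genes were 3.93% GM12878-rich and 3.88% mESC-rich. The lists were written with earlier results of these data known, so their directions are no independent support. For list genes that could not be matched, the comparison is with all symbols, of which 12578 had a call in GM12878 only and 8252 in mESCs only. An excess of GM12878-only genes in a list is therefore no sign of its direction by itself. Genes that share a mouse bait can be missed, and their part in this excess was not tested.

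B cell identity and signalling genes had more calls in GM12878. Of 30 matched genes 21 had more calls in GM12878 and 8 in mESCs, with medians of 9 and 4 calls, and 5 were GM12878-rich and none mESC-rich. The GM12878-rich genes were ETS1, LYN, a kinase of B cell receptor signalling, with 23 against 2 calls, IKZF1, the lymphoid factor Ikaros, with 20 against 3, IRF8 with 15 against 1, and SLAMF1, a surface receptor, with 27 against 3. Large differences outside that group were seen for IRF4 (45 against 7) and PRDM1 (43 against 5), both regulators of plasma cell differentiation. The opposite held for BCL11A with 1 against 14, IKZF3 with 7 against 19 and CD79A with 4 against 13. A further 16 genes of the list, among them PAX5, POU2AF1, MS4A1 and BLK, had a call in GM12878 only and so could not be matched, and 6, CD40 among them, in mESCs only. Over all symbols, too, more had a call in GM12878 only than in mESCs only. T cell genes, listed as markers of other lymphocytes, split 7 to 6 of 14, with medians of 4 and 3 calls. CD4 stood out among them with 70 calls in GM12878 against 10, and it lies beside GAPDH, which it contacted in both cell types.

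NF-kB genes leaned the same way. Of 28 matched genes 19 had more calls in GM12878 and 8 in mESCs, with medians of 11.5 and 3.5, and 6 were GM12878-rich. These were the subunit gene NFKB1 with 17 against 3 calls, the kinases MAP3K14 and MAP3K8 with 15 against 3 each, and TRAF1, TNFAIP8 and BIRC2 described above. The other subunits had 34 against 4 (REL), 29 against 4 (NFKB2) and 9 against 3 (RELA), while RELB had 14 against 27. Among the inhibitors the direction differed by gene. TNFAIP3, the ubiquitin-editing enzyme A20, had 33 against 5, but NFKBIA, encoding IkB alpha, had 11 against 29 and NFKBID 9 against 55. With a score of at least 10, only 8 NF-kB genes stayed matched and the split turned to 3 against 4.

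Interferon and antigen presentation genes had more calls in GM12878 for 17 of 29 and in mESCs for 9, with medians of 5 and 3. IRF1, STAT2, IFNAR2 and TAP1 were GM12878-rich, with 16 to 23 calls against 1 to 3. TAPBP, the chaperone tapasin, was mESC-rich with 3 against 16. When both lists were shortened to the same number of calls, 14 of these genes stayed matched and the split turned to 4 against 7.

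Hox cluster genes showed the widest gap in median calls of the 13 lists. Of 26 matched genes 24 had more calls in mESCs and 2 in GM12878, with medians of 10.5 calls in GM12878 and 36 in mESCs, and genes with more calls in mESCs came from all 4 clusters. HOXA10 (2 against 29), HOXB1 (1 against 22) and HOXB7 were mESC-rich. HOXB3 (64 against 43) and HOXC6 (83 against 54) went the other way, and HOXC6 had 3 human baits and 1 mouse bait. As a mean per bait all 26 Hox genes had more calls in mESCs. The calls also differed in kind. The gene's median distance of cis-chromosomal calls was 407.6 kb in GM12878 and 88.8 kb in mESCs, as medians over genes. Its median read count was 13 and 26.5. Of their mESC calls under 1 Mb 653 of 954, or 68.4%, lay within Hi-C bin pairs. By these medians over genes, mESC calls were nearer and on more reads than those in GM12878. Calls over 1 Mb nevertheless made up 12.8% of the 1098 mESC calls and 0.733% of the 409 GM12878 calls. These totals add the calls of each gene, so a call of a human bait shared by Hox genes counts once for each.

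Developmental transcription factors outside the Hox clusters had more calls in mESCs for 73 of 87 matched genes and in GM12878 for 12, with medians of 2 calls in GM12878 and 13 in mESCs. Of these, 26 were mESC-rich, against 3.88% of all matched genes. Besides FOXD2, TBX1, ZIC2 and EVX1 they included TLX1 (1 against 39), UNCX (1 against 37), LHX1 (1 against 35), NEUROD2 (2 against 33), BARX1 (2 against 31), MNX1 (3 against 28), NKX2-1 (3 against 25) and DLX1 (1 against 23). HAND1 (33 against 18) and DLX3 (26 against 17) were among those with more in GM12878. Over 1 Mb lay 28.8% of the mESC calls of this list, against 3.43% of all matched genes, and 2.68% of its GM12878 calls. A further 49 genes of the list had a call in mESCs only, GATA6, PAX3, PAX7 and OLIG2 among them, and 12 in GM12878 only.

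These promoters contacted each other in mESCs. Counting the 113 matched genes of the Hox and developmental lists together, 318 of 2480 mESC calls, or 12.8%, ended on a fragment named after another gene of the 2 lists, and 94 of these spanned more than 1 Mb and 2 were trans-chromosomal. In GM12878 it was 4 of 685 calls, or 0.584%, none over 1 Mb. Calls that ended on any bait also differed, at 744 of the 2480 in mESCs and 93 of the 685 in GM12878. Contacts between neighbours of the same Hox cluster were not counted apart, and no such share was taken over all matched genes. Examples from mESCs are DLX1, which contacted Hoxd3, Hoxd10, Hoxd12, Hoxd13 and Evx2, and UNCX, whose highest score of 46.72 reached Tbx3 at 19896.2 kb. ZIC1, with 18 against 1 calls, contacted the promoters of Eomes, Sox14 and Tbx18. The calls came from 118 human and 113 mouse baits.

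**Figure D5:**
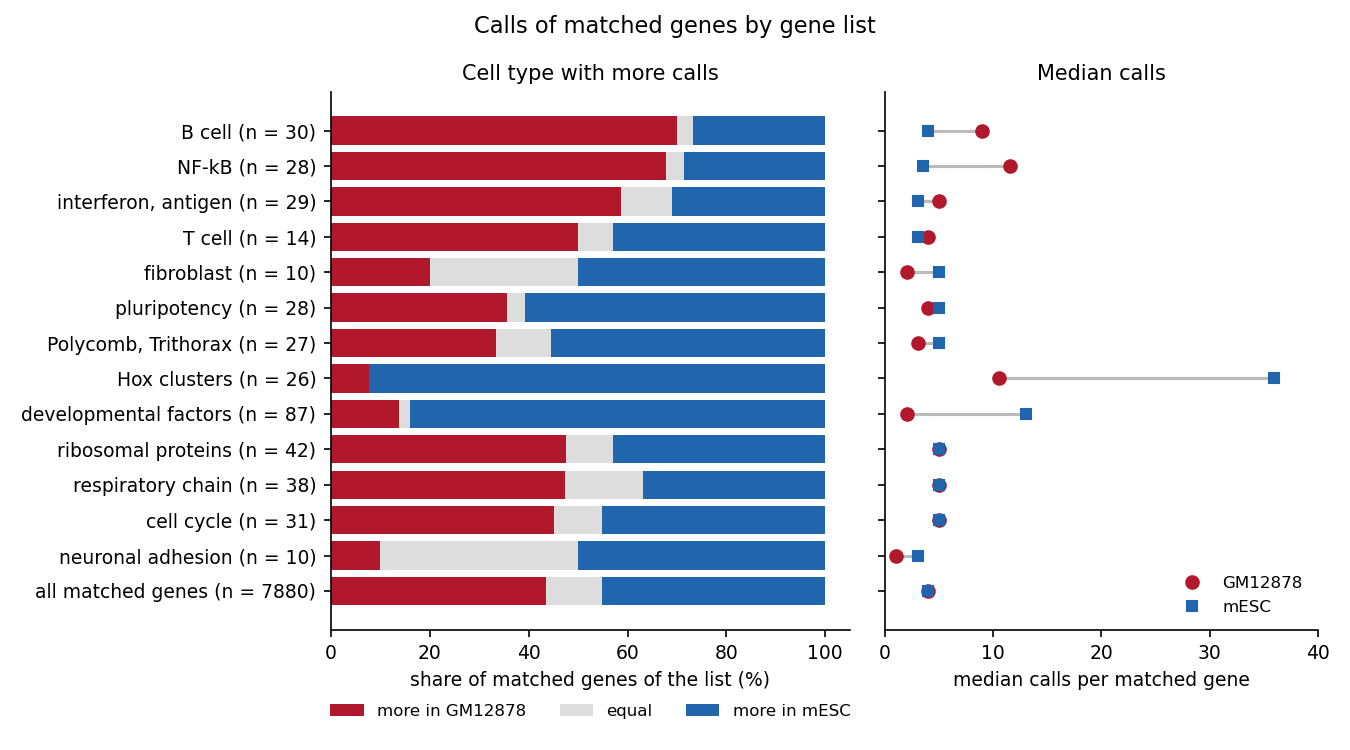
Left, share of the matched genes of each list (%) with more calls in GM12878 (red), equal calls (grey) or more calls in mESCs (blue), with the number of matched genes in brackets. Right, median calls per matched gene in GM12878 (circles) and mESCs (squares), where Hox cluster genes (10.5 and 36) and developmental factors (2 and 13) lie furthest apart and B cell (9 and 4) and NF-kB genes (11.5 and 3.5) lean to GM12878.

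Genes of the Polycomb and Trithorax complexes were divided. Of 27 matched genes 15 had more calls in mESCs and 9 in GM12878, with medians of 5 and 3 calls. EZH2, the methyltransferase of Polycomb complex PRC2, was GM12878-rich with 24 against 3, as was ASH1L with 26 against 3. CBX2 (1 against 15), CBX8 (3 against 26), PCGF2 (3 against 19) and RYBP (3 against 17), all PRC1 subunits, were mESC-rich. The median mESC call distance of CBX8 was 22683 kb, and its highest score of 26.46 was with the promoter of Hoxb7. CBX2 and CBX8 are neighbours, and both had calls to the HoxB cluster in mESCs. Calls over 1 Mb made up 24.9% of the mESC calls of the whole list.

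Pluripotency genes, which mark embryonic stem cells, showed a smaller gap. Of 28 matched genes 17 had more calls in mESCs and 10 in GM12878, with medians of 5 and 4. TRIM28, a corepressor, was the only mESC-rich member with 1 against 20, and TBX3 had 10 against 44. The opposite held for SMAD7 with 27 against 11, ID2 with 10 against 2 and LEFTY1 with 20 against 13. POU5F1 (4 against 5) and SOX2 (1 against 3) had few calls in both. A further 18, NANOG, KLF4 and ESRRB among them, had a call in mESCs only and 5 in GM12878 only. Fibroblast genes, listed because the mESCs were grown on feeder cells, had more calls in mESCs for 5 of 10 and in GM12878 for 2, with medians of 5 and 2 calls. PDGFRA had 4 against 17, S100A4 2 against 7 and COL1A2 1 against 3. COL1A1 had 12 against 13, and TWIST1 and PRRX1 had 2 against 1 each. A further 8 fibroblast genes had a call in mESCs only and 3 in GM12878 only. Neuronal adhesion genes, often long and in gene deserts, had more in mESCs for 5 of 10 and in GM12878 for 1, and none of the 10 except SLIT3 (3 against 18) was in either group.

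Housekeeping lists lay near the values of all matched genes. Ribosomal protein genes split 20 to 18 of 42, respiratory chain genes 18 to 14 of 38 and cell cycle genes 14 to 14 of 31, each with a median of 5 calls in both cell types. Single members still differed widely. RPS26 had 60 against 8, RPLP0 28 against 1 and RPL32 2 against 16, and CDKN1B, a cyclin-dependent kinase inhibitor, had 30 against 3. Many ribosomal protein genes have processed copies elsewhere in the genome, so reads of their baits may be less certain to place.

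The promoter contacts were partly shared for 4 of the 5 genes with the most calls in both cell types. GAPDH, encoding a glycolytic enzyme, had 84 calls in GM12878 and 62 in mESCs. Of its baited ends, 19 matched genes in GM12878 and 16 in mESCs were named, of which 12 were named in both, among them CHD4, TNFRSF1A and NCAPD2. TUT1, an RNA uridylyltransferase, had 56 and 61 calls and 9 such shared partners, of 12 and 14. DMKN had 63 and 57 calls with 4 shared of 7 and 12, and the histone gene HIST1H4H had 55 and 71 with 4 shared of 11 and 11. Histone genes of this cluster are near-identical copies, so the match by symbol between species is uncertain for HIST1H4H. HOXC6, with 83 and 54 calls, had 4 matched partners in GM12878 and 9 in mESCs, and 0 in both.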

How the data were processed

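Promoter CHi-C was analysed in GM12878 (3 replicates) and mESCs (2), with 1 mESC Hi-C library. The authors mapped reads to hg19 or mm9 with HiCUP and called interactions with CHiCAGO on all replicates of a cell type together. The deposited CHiCAGO score is at least 5 throughout, and the read count listed by the authors is a weighted mean over replicates rounded to a whole number, not a raw count. For Hi-C, the deposited count of read pairs per bin pair and the deposited FDR, a p-value adjusted by HOMER (4.7 per the submitters' processing notes, which also list Bowtie 1.1.0), were used, and 6135 of 62666 bin pairs of 25 kb with an FDR under 0.05 were kept. Per-replicate values and library depths were not analysed here, and the lists give only the number of calls, 92929 in GM12878 and 101841 in mESCs, which is not a sequencing depth. The 7880 matched genes held 59.2% and 57.5% of them, on 7953 and 7898 baits.

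Lines were read in pairs, bait and other end. Bait names are joined by semicolons in the human list and by bars in the mouse list, and transcript suffixes were removed. Calls of a gene were summed over the listed baits that carry its symbol, so that a contact between 2 baits counts once for each end from which it was called. Call totals of a group or of 1 list add its genes, so a call of a bait shared by several of them counts once for each. Nearly all mouse baits carry 1 symbol (6 matched genes shared a mouse bait with another symbol, against 3839 for human baits), so genes that share a mouse bait can be missed. Distances were taken between fragment midpoints. All 56775 human and 52640 mouse fragments listed were HindIII fragments of the reference genomes, and GENCODE annotation of the same builds gave transcript starts, exons and introns. Of the 7880 matched genes, 7454 had an annotated start on a listed human bait and all had one on a mouse bait. Named were the 15 baits with the largest difference in each direction, the 5 genes with the most calls in both lists, members of 13 gene lists in either group and the 3 list members with the largest difference each way. Other list members with values, such as RELA, POU5F1, SOX2, COL1A1, TWIST1 and CD79A, were chosen after their values were seen. The members and lists were chosen with earlier results of these data known. No test was made, since each cell type has 1 list. The alternatives were another score minimum, equal list lengths, the browser list, means per bait, baits with 1 symbol, cis-chromosomal calls, calls on at least 10 reads, calls under 1 Mb and other limits for the groups. The matching was tested on simulated lists. Python 3.11.15 with pandas 2.3.3, numpy 2.4.6, scipy 1.17.1 and pysam 0.24.0 was used. Some genes and 1 sequence are not reported here.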

Additional observations from a re-analysis of the deposited data

How the results depend on the processing

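No paired analysis was possible because each cell type has a single list of calls and no replicate values. At the limits used, 310 genes were GM12878-rich and 306 mESC-rich. Under each of the 15 alternatives no gene passed from one group to the other. For most of them this was fixed in advance, since a gene with at most 3 calls could not reach the upper limit. Such alternatives only removed, averaged or rescaled calls, dropped genes or changed the limits. Only the browser list, every annotated mouse start and current symbols could add calls, and no gene passed there either. The alternatives that removed calls also removed genes, since a gene needs a call in both lists. With a score of at least 10, 1547 genes stayed matched, with 33 GM12878-rich genes (3 of them among the 310) and 29 mESC-rich genes (2 among the 306). More calls in mESCs were then found for 35.4% of genes, medians were 2 and 2 calls, 133.9 and 99.1 kb, and 24 and 20.5 reads (GM12878 first here and below), and DMKN and HOXC6 turned to differences of -5 and -16 calls (GM12878 minus mESC). With both lists shortened to the 46464 calls of highest score, 4517 genes stayed matched, with 148 and 108 in the groups (53 and 43 shared), 38.6% with more in mESCs, and medians of 3 and 3 calls, 154.4 and 121.5 kb, and 18 and 15.5 reads. In the browser list, which gives each pair once and here counted it for both ends, medians were 5 and 5 calls and 14 and 11.5 reads, and TUT1 and HIST1H4H turned to 8 and 3. As means per bait, 254 genes were GM12878-rich and 323 mESC-rich (254 and 304 shared). With these means 47.7% of genes had more calls in mESCs, and DMKN and HOXC6 turned to -25.5 and -26.3. With baits of 1 symbol, 4243 genes were matched, 162 and 150 were in the groups, the median distances were 178.0 and 145.5 kb, the GM12878 reads 14, and DMKN turned to -24. With calls on at least 10 reads, 40.7% had more in mESCs, the mESC median was 3 calls, distances were 133.0 and 83.9 kb and reads 17 and 16.5, and HIST1H4H turned to 19. Under 1 Mb, the mESC medians were 135.9 kb and 12.5 reads, and HIST1H4H turned to 6. Limits of at least 20 and at most 2 calls gave 151 and 128 genes. Scaling both lists to equal totals left 202 GM12878-rich genes, because 3 mESC calls then exceed the limit of 3 and 15 GM12878 calls fall below that of 15. Among alternatives chosen after seeing the data, naming mouse baits by every annotated protein-coding start gave 46.4% with more in mESCs and a mESC median of 5 calls. Protein-coding genes, current symbols and human baits counted once moved none of these results. The longer distance and higher read count in GM12878 held in the 12 alternatives that recomputed them, which leaves out other limits for the groups and equal totals. The cause of these shifts was not tested beyond what their construction shows, and counts without replicates limit all comparisons to the lists as they stand.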
